A study of Danio rerio with 6 samples.

Results

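The digestive enzymes of the exocrine pancreas were followed in dissociated cells and in isolated nuclei of zebrafish with BRAF V600E melanomas. Of 9 listed symbols, prss59.1, prss59.2, prss1, try, ctrb1, ela2, ela2l, ela3l and cpb1, 8 were found among the 32268 genes counted in each library. The symbol prss1 was not among them. The identifier that the files call try (ENSDARG00000042993) carries the current symbol prss1 in the gene name table, so that try and prss1 are 1 gene and all 8 distinct genes were measured. The genes were listed by symbol, and the rule itself uses no measured value. Earlier results of these data were known when the list was chosen.

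Adult fish of the casper background carried the transgene mitfa-BRAF V600E together with p53-/- and mitfa-/-, and were injected with plasmids that express mitfa-MITF and mitfa-GFP, so that rescued melanocytes and the tumors they form are marked by GFP. Every sample shares this background, and no tumor-free fish was compared. Head and tail were removed, and the tumor with the tissue around it was dissociated for samples E and F, or ground to release nuclei from 3 fish that were tagged with hashtags and run in a single reaction. GFP-positive and GFP-negative cells or nuclei were collected in about equal numbers, so that shares of cells are set in part by the sort.

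Acinar cells of the pancreas make digestive enzymes as inactive precursors, pack them into zymogen granules and release them into the gut. The trypsins cut proteins beside basic residues and activate the other precursors, chymotrypsins and elastases cut beside other residues, and carboxypeptidases trim the ends of the fragments. In fish the exocrine pancreas is spread along the gut. Transcripts of such abundant secretory genes are also a common component of the free RNA of droplet experiments, that is, of RNA outside any cell or nucleus that is captured with every barcode.

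Sample E held 33314558 UMIs (unique molecular identifiers) in 1911 barcodes, of which 1780 were kept as cells, and sample F held 14364782 UMIs in 1085 barcodes, of which 1002 were kept. The nuclei library held 115656723 UMIs in 1632907 barcodes, and 13380 barcodes were kept as nuclei. Samples E and F shared 0 barcodes, and the nuclei shared 5 with sample E and 1 with sample F. Levels are given as CPM, the UMIs of a gene per 1000000 UMIs of the pool. Intervals are exact 95% intervals (Poisson for levels, Clopper-Pearson for shares) and cover counting error only. Each of the libraries is 1 preparation, so no test between them was made.

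The 8 enzymes together made up 988544 UMIs of the nuclei library, 6895 UMIs of sample F and 46 UMIs of sample E. As a level this was 8547 CPM in the nuclei library (8530 to 8564), 480.0 CPM in sample F (468.7 to 491) and 1.38 CPM in sample E (1.01 to 1.84). The libraries thus differed by far more than their counting error. In sample F, 92.8% of the enzyme UMIs came from 1 cell, and without it the kept cells of F held 86 enzyme UMIs, or 6.05 CPM (4.84 to 7.47).

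In the nuclei library, the enzymes were found in barcodes of every size. Barcodes of 1 to 50 UMIs, taken as free RNA, held 30435 enzyme UMIs among 2738617, a level of 11113 CPM (10989 to 11239). Barcodes of 1 to 10 UMIs stood at 11627 CPM, and the level was 6217 CPM in those of 11 to 50 UMIs and 7910 CPM in those of over 100 and under 200 UMIs, a class that alone held 44108 barcodes. The level in barcodes too small to be nuclei was therefore between 6033 and 11627 CPM, depending on their size.

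**Figure D1:**
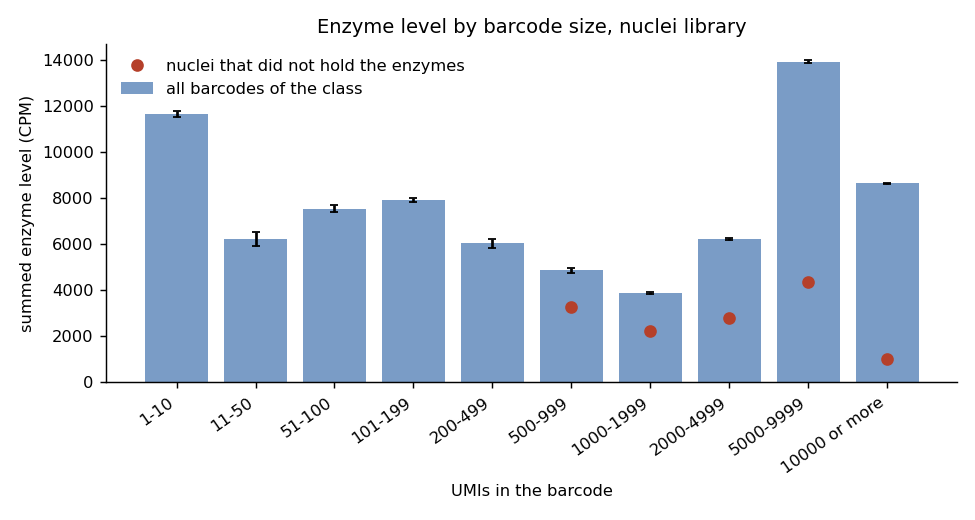
Summed level of the 8 enzymes in the nuclei library (y axis, CPM) by the number of UMIs in the barcode (x axis). Bars stand for all barcodes of a class with exact 95% Poisson intervals, and red points for the nuclei of that class that did not hold the enzymes, which lie between 1027 and 4348 CPM.

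A nucleus was called enzyme-holding when it had at least 10 enzyme UMIs and an enzyme share of at least 10 times the share in free RNA. This was met by 217 of 13380 nuclei, or 1.62% (1.41 to 1.85%). In these nuclei the enzymes reached 368901 CPM, that is 36.9% of all their UMIs and 33.2 times the free RNA level. They held 80.9% of the 900438 enzyme UMIs found in nuclei. All 8 enzymes were detected together in 214 of the 217, and also in 645 of the 13163 other nuclei. The rule selects on the summed enzyme UMIs, so the first count is largely set by it. The share of UMIs that were enzyme UMIs ran from 11.4% to 54.5% between nuclei, with a median of 31.4%, and the summed enzyme UMIs from 110 to 19942, with a median of 1852. Their median depth was 5918 UMIs and 858 genes, against 2136 UMIs and 1052 genes in the other nuclei. None of the 217 was among the 259 nuclei called as doublets, although 34 of the 217 carried several hashtags.

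The remaining 13163 nuclei held the enzymes at 1695 CPM (1687 to 1703), which is 0.153 times the free RNA level and 0.221 times the level in barcodes of over 50 and under 500 UMIs. This pooled value was weighted by oocyte-like nuclei of very high RNA content, and without them it was 3546 CPM, or 0.319 times free RNA. The rule had also taken the nuclei of highest enzyme share out of these others. All 13380 nuclei together stood at 8701 CPM. The median other nucleus had an enzyme share of 0.0693%, 2859 nuclei had 0 enzyme UMIs, and 657 of the others (4.99%) lay above the free RNA level. The 2 classes of nuclei were not separated by a gap. There were 30 nuclei at 8 to 10 times the free RNA share, just outside the threshold, and the highest share outside it was 11.02% beside a lowest share inside it of 11.4%.

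**Figure D2:**
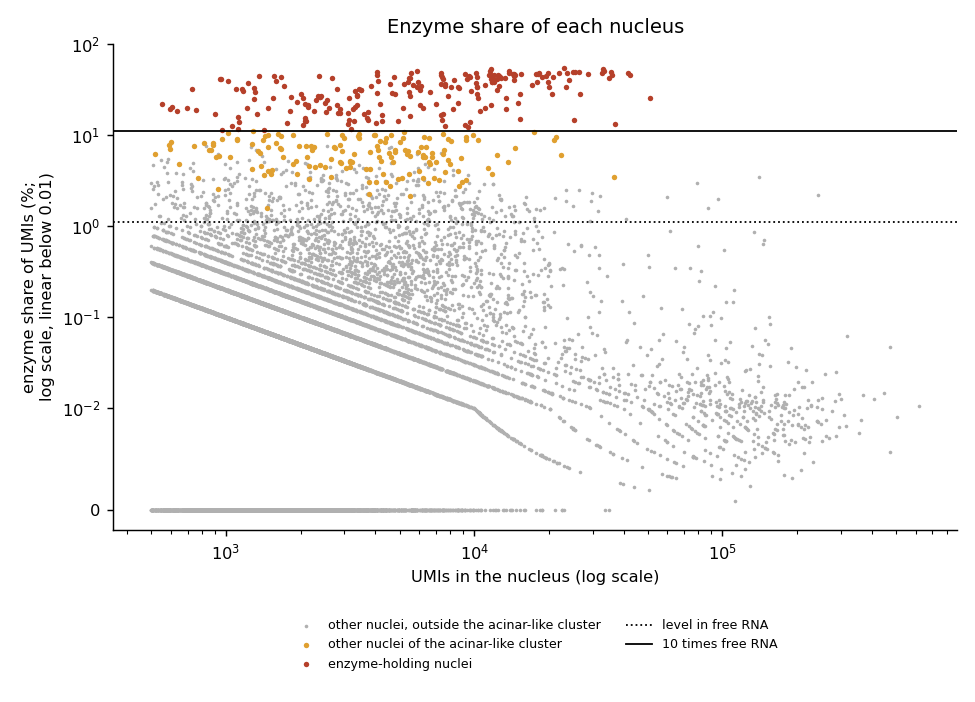
Share of each nucleus's UMIs that came from the 8 enzymes (y axis, %, log scale, linear below 0.01) against its total UMIs (x axis, log scale). Each point is 1 nucleus. The solid line marks 10 times the free RNA share. The enzyme-holding nuclei lie above it at 11.4% to 54.5%, and the other nuclei of the acinar-like cluster lie between it and the dotted line of free RNA.

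Nuclei were then clustered with the enzyme genes left out of the features. The normalization still counted enzyme UMIs, and other acinar genes were not left out, so the clusters are not independent of the enzyme level. Of the 24 clusters, 1 held 86.1% of the enzyme UMIs of nuclei. This cluster of 372 nuclei was called acinar-like, since its leading genes included amy2a (amylase), ctrl (a chymotrypsin-like protease) and endou (an endonuclease). It contained 216 of the 217 enzyme-holding nuclei and stood at 285357 CPM, 25.7 times free RNA. Its other 156 nuclei, which did not reach the threshold, all lay at or above the free RNA level, with a median of 5.59 times it and a median depth of 3764 UMIs against 5978.5 UMIs in the enzyme-holding nuclei of the cluster. The 1 enzyme-holding nucleus outside it fell in an unnamed cluster with igl1c3 and rorc among its leading genes.

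Outside the acinar-like cluster, no cluster reached the free RNA level of 11113 CPM. The nearest was a skeletal muscle-like cluster of 741 nuclei led by myosin and parvalbumin genes, at 8831 CPM or 0.795 times free RNA, while a second skeletal muscle-like cluster of 572 nuclei stood at 1664 CPM. The first of these lay above the level of 7670 CPM in barcodes of over 50 and under 500 UMIs, and was the only such cluster besides the acinar-like one. Other listed genes of acinar cells were raised in it too, with a mean log2 ratio to the median cluster of 2.23. That mean was 7.08 in the acinar-like cluster and at most 1.095 in the remaining clusters. The erythrocyte-like cluster was at 3318 CPM, the pancreatic duct-like cluster at 2794 CPM, the intestine-like cluster at 2585 CPM and the tumor-like cluster at 1474 CPM. The lowest level, 237 CPM, was found in oocyte-like nuclei with a median of 107714 UMIs. The levels in these 23 clusters were all below the 11113 CPM of free RNA, although that of the first skeletal muscle-like cluster was above the 6217 CPM of barcodes of 11 to 50 UMIs and the 7530 CPM of those of 51 to 100. Their source was not tested.

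**Figure D3:**
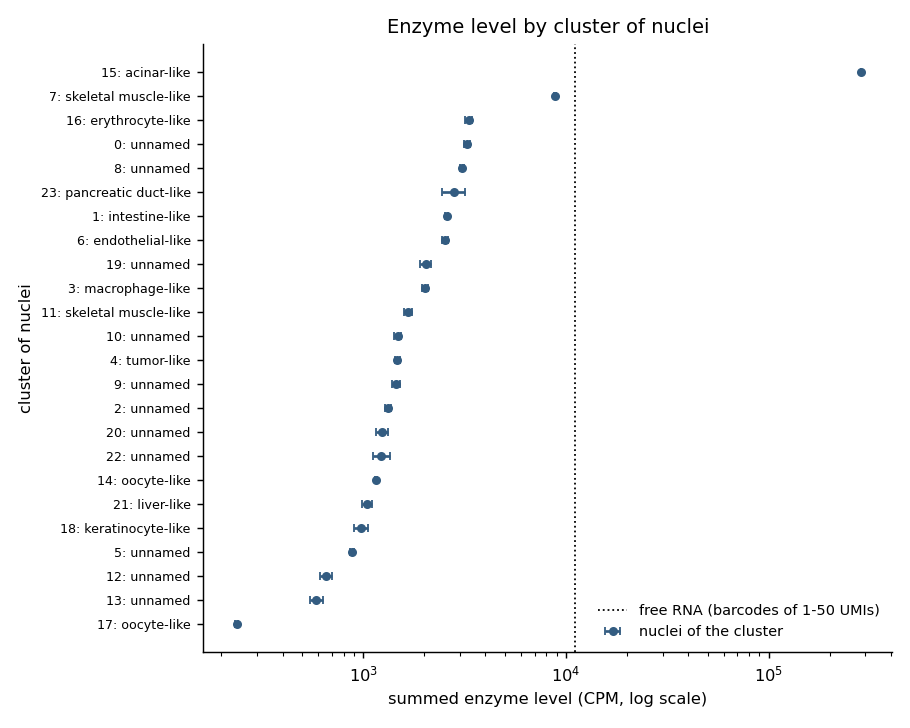
Summed enzyme level (x axis, CPM, log scale) in each of the 24 clusters of nuclei (y axis), with exact 95% Poisson intervals. The dotted line is free RNA at 11113 CPM. The acinar-like cluster lies at 285357 CPM, and the other clusters between 237 and 8831 CPM, all below the line.

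The share of nuclei with any enzyme UMI did not separate the clusters in the same way. It was 100% in the acinar-like cluster, but also 94.2% in the skeletal muscle-like cluster nearest to free RNA and 99.1% in the deepest oocyte-like cluster. After each nucleus was thinned down to 500 UMIs, the shares of the same clusters became 100%, 78.9% and 10.9%. In the tumor-like cluster the share was 75.6% before and 33.9% after thinning.

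Among the trypsins, try, a trypsin gene, stood at 76192 CPM in the enzyme-holding nuclei, 370 CPM in the other nuclei and 2337 CPM in free RNA. The serine proteases prss59.1 and prss59.2 reached 74723 CPM and 57096 CPM in the enzyme-holding nuclei, against 317 CPM and 266 CPM in the others. These 2 genes are neighbours on the current zebrafish assembly (GRCz12tu), with 0 annotated genes starting between them. Their sequences were not compared, and how well reads were divided between them was not tested. The chymotrypsinogen gene ctrb1 had 77149 CPM in the enzyme-holding nuclei, the highest of the 8 when these were pooled, 326 CPM in the others and 2376 CPM in free RNA. These 4 genes made up the larger part of the enzyme UMIs in every pool of nuclei barcodes.

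The elastases were lower. In the enzyme-holding nuclei ela2l stood at 35791 CPM and ela3l at 29500 CPM, and ela2 at 9122 CPM. The genes ela2 and ela2l also have 0 annotated genes starting between them, and the division of reads between them was likewise not tested. Carboxypeptidase B, cpb1, was at 9329 CPM, close to ela2. The level in the enzyme-holding nuclei was between 193 times (cpb1) and 241 times (ela2) that in the other nuclei, and the level in the other nuclei between 0.133 times (ela2) and 0.174 times (cpb1) that in free RNA. With oocyte-like nuclei left out of the others, the first ratios were 89.8 to 114. The second ratios include these nuclei, and the summed level without them was 0.319 times free RNA. The enzymes were part of the rule that chose the nuclei, so these ratios are a description.

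The mix of the 8 genes, in contrast to their sum, was not used by the rule. In the enzyme-holding nuclei ctrb1 made up 20.9% of the enzyme UMIs, try 20.7%, prss59.1 20.3%, prss59.2 15.5%, ela2l 9.70%, ela3l 7.997%, cpb1 2.53% and ela2 2.47%. The mix in free RNA differed from it by a total variation distance of 2.20% (the share of UMIs that would have to change gene to turn one mix into the other), and that in the other nuclei by 3.48%. The largest single difference to free RNA was in prss59.1, with 18.1% (17.7 to 18.5%) of the enzyme UMIs there and 20.3% (20.2 to 20.3%) in the enzyme-holding nuclei.

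The mix also depended on the size of the barcode. Per UMI of try there were 1.03 UMIs of ctrb1 in barcodes of 1 to 10 UMIs, 0.714 in those of 51 to 100, 0.839 in those from 500 to under 1000, and 0.992 in those of 10000 or more. Barcodes of over 50 and under 500 UMIs, with 16.6% of ctrb1 (16.3 to 16.9%) and 12.6% of ela2l (12.3 to 12.9%), were 7.71% away from the enzyme-holding nuclei and 6.27% from free RNA. The barcodes below the size of a nucleus therefore did not carry the enzymes in 1 fixed ratio, and the difference was larger than counting error.

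**Figure D4:**
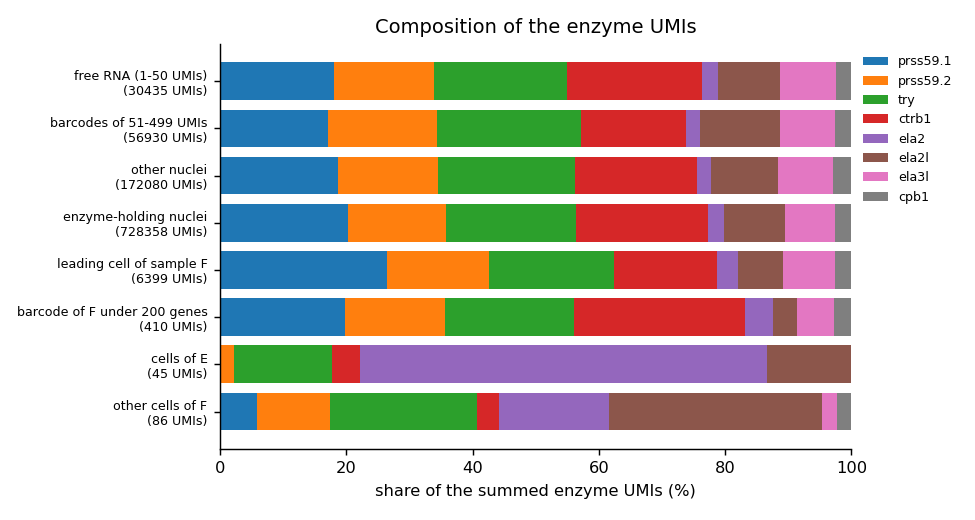
Share of each of the 8 genes (colors) among the summed enzyme UMIs (x axis, %) in 8 pools of barcodes (y axis, with their enzyme UMIs). In the pools of the nuclei library try makes up 20.7% to 22.8%, while ctrb1 varies more, from 16.6% to 21.4%. In the cells of sample E ela2 makes up 64.4%, and in the other cells of sample F ela2l makes up 33.7%.

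The 3 fish of the nuclei library could be told apart for the 9657 nuclei with a single hashtag, of which 134 were enzyme-holding. Enzyme levels in these were 357358 CPM in fish 1 (48 nuclei), 349163 CPM in fish 2 (49 nuclei) and 424095 CPM in fish 3 (37 nuclei), or 376872 ± 41101 CPM (SD, n = 3). The share of prss59.1 among enzyme UMIs was 18.1%, 20.1% and 22.8% in the 3 fish, and that of prss59.2 was 17.2%, 14.9% and 14.5%, so that prss59.1 exceeded prss59.2 by 1.06 times in fish 1, 1.35 times in fish 2 and 1.57 times in fish 3. With both gates pooled, the most abundant enzyme differed by fish, being ctrb1 in fish 1 (22.1%), try in fish 2 (21.6%) and prss59.1 in fish 3. The order was not stable within a fish. In the few GFP-negative nuclei, try led in fish 1 (20.5%) and ctrb1 in fish 3 (21.7%). With a hashtag called at 3 times the next, ctrb1 (22.3%) led prss59.1 (22.0%) in GFP-positive nuclei of fish 3. Their level was then the lowest, at 337251 CPM beside 368490 CPM in fish 1 and 349740 CPM in fish 2. The share of ctrb1 was 21.0% ± 1.36 (SD, n = 3), of try 20.5% ± 1.102, of ela2 2.51% ± 0.566 and of cpb1 2.54% ± 0.798. The share of prss59.1 was 20.3% ± 2.32, and its value in free RNA lay just under that of the lowest fish, fish 1.

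Enzyme-holding nuclei were more frequent among the GFP-positive than among the GFP-negative nuclei of each fish. In fish 1 they were 43 of 1891 GFP-positive nuclei (2.27%) and 5 of 1659 GFP-negative nuclei (0.301%). In fish 2 they were 39 of 1446 (2.70%) and 10 of 1354 (0.739%), and in fish 3 they were 27 of 857 (3.15%) and 10 of 2450 (0.408%). The intervals cover counting of nuclei only and are no test between gates. With a hashtag called where it had at least 3 times the next, they overlapped in each fish, with 1, 1 and 3 GFP-negative enzyme-holding nuclei. The enzyme level within these nuclei was also lower in the GFP-negative gate of each fish, at 341286, 183405 and 235947 CPM against 358795, 359337 and 438230 CPM. The share was lower in GFP-negative nuclei by 2.22 ± 0.449 percentage points (SD, n = 3 fish), the same way in 3 of 3 fish, with p = 0.25 by an exact sign-flip permutation test, two-sided, which is the smallest p that 3 pairs allow.

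**Figure D5:**
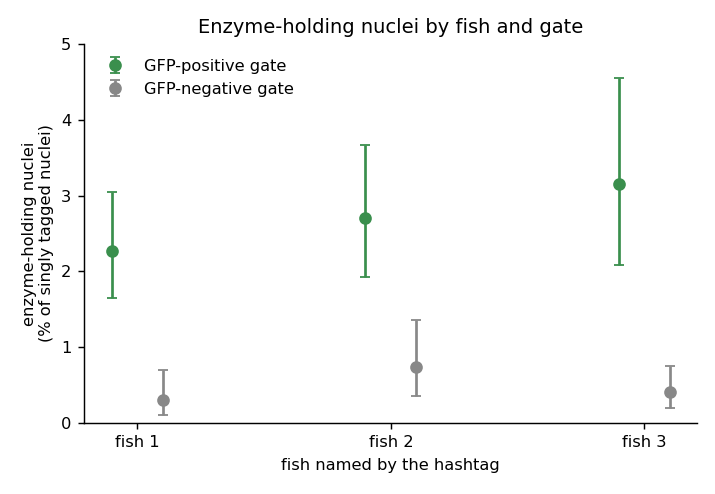
Enzyme-holding nuclei as a share of the singly tagged nuclei (y axis, %) of each fish (x axis) in the GFP-positive and GFP-negative gates, with exact 95% Clopper-Pearson intervals. The GFP-positive shares lie at 2.27% to 3.15% and the GFP-negative shares at 0.301% to 0.739%.

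Transcripts of the transgenes EGFP and BRAF were lower in these nuclei than in the other nuclei, in free RNA or in the tumor-like cluster. EGFP was at 12.7 CPM in the enzyme-holding nuclei (8.19 to 18.7), below 35.9 CPM in the other nuclei, 86.2 CPM in free RNA and 226 CPM in the tumor-like cluster. Human BRAF, the other transgene examined, had 46.1 CPM in the enzyme-holding nuclei, 132 CPM in the others, 220 CPM in free RNA and 775 CPM in the tumor-like cluster. Both were therefore below free RNA in the nuclei that held the enzymes. The ratio to the other nuclei was 0.352 for EGFP and 0.350 for BRAF, above the median of 0.241 over all genes tested. Without oocyte-like nuclei the ratios were 0.141 and 0.142, below a median of 0.257. No hashtag was found on 49 of the 217 nuclei and several on 34, beside 2094 and 1629 of all 13380 nuclei. The part of the sort and of the hashtags in the difference between the gates was not tested.

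A list of 21 other genes of acinar cells was compared between the enzyme-holding and the other nuclei, of which 17 were found in the files. All 17 were at least 10 times higher in the enzyme-holding nuclei, where 0.367% of the 20691 genes tested passed this threshold, with a median ratio of 194 against 0.241 over all genes tested. At the other end, 23.3% of all genes tested were at least 10 times lower there, and none of the 17. With the enzyme UMIs left out of the totals, all 17 again passed. These nuclei were chosen for genes of the same cells, and the list was known to be high in them, so the count is a description.

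The starch-cutting amylase amy2a was the highest of them, at 18207 CPM in the enzyme-holding nuclei against 81.1 CPM in the others and 502 CPM in free RNA. The lipid-digesting enzymes cel.2 and cel.1, which are carboxyl ester lipases, stood at 13613 CPM and 7184 CPM, and the phospholipase pla2g1b at 1715 CPM. Of the carboxypeptidases of the A type, cpa4 was at 815 CPM, cpa1 at 4697 CPM and cpa5 at 8196 CPM. The protease ctrl was at 11456 CPM, and c6ast3 and c6ast4, of the astacin family of metalloproteases, at 5716 CPM and 186 CPM. The granule protein gene sycn.2 was at 5620 CPM, endou at 1075 CPM and the protein disulfide isomerase gene pdia2 at 582 CPM. The genes zgc:112160, zgc:92590 and zgc:136461 were at 16592 CPM, 12331 CPM and 816 CPM.

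The ratio to the other nuclei was lowest for pdia2 at 77.5 times and highest for amy2a at 225 times, and 33.8 to 106 times with oocyte-like nuclei left out of the others. In the other nuclei the companions stood at 0.140 times (endou) to 0.294 times (pdia2) of their free RNA level, with a median of 0.165. The same ratio was 0.133 to 0.174 for the 8 enzymes and had a median of 1.20 over all genes tested.

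Transcription factors of acinar cells were far less abundant, and most did not pass the threshold. Of 6 listed factors, 5 had at least 50 nuclear UMIs, and 1 was at least 10 times higher in the enzyme-holding nuclei, against 0.367% of all genes tested. This was rbpjl, a partner of Ptf1a in the complex that drives acinar genes in mammals, with 51.2 CPM (41.7 to 62.2) against 1.51 CPM, a ratio of 33.9 that was 14.1 without oocyte-like nuclei. Its level in free RNA was 1.095 CPM, which rests on only 3 UMIs. An enrichment there over the other nuclei, as the enzymes had, was not seen at this small count. The gene nr5a2, a nuclear receptor, was at 148 CPM against 34.8 CPM, and bhlha15 (Mist1 in mammals), a factor of secretory cells, at 8.61 CPM against 2.77 CPM. These ratios also changed with the nuclei compared. Without oocyte-like nuclei the ratio fell from 4.26 to 1.76 for nr5a2 and was 11.3 in place of 3.11 for bhlha15, with too few UMIs to be counted there. The GATA factors gata6 and gata4 were at 12.7 CPM and 1.52 CPM against 9.71 CPM and 1.93 CPM. Only 3 UMIs of ptf1a were found in nuclei, 2 of them in enzyme-holding nuclei.

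Genes of the other pancreatic compartments did not pass this threshold. None of the 4 duct genes tested and none of the 9 islet genes tested was at least 10 times higher in the enzyme-holding nuclei. As only 0.367% of all genes tested were, this does not set them apart from other genes. With the enzyme UMIs left out of the totals, again 0 of them passed. The insulin gene ins was at 24.3 CPM against 25.3 CPM, a ratio of 0.959, or 1.52 without the enzyme UMIs. The somatostatin gene sst2 was at 29.9 CPM (22.7 to 38.5) against 5.21 CPM, a ratio of 5.73. This ratio was 2.65 without oocyte-like nuclei and 9.07 with the enzyme UMIs left out of the totals. The islet genes scg3, pcsk1 and pcsk2, which process or pack hormones, had 0 UMIs in the enzyme-holding nuclei, with an exact upper limit of 1.87 CPM. This limit is below the level of scg3 in the other nuclei (8.49 CPM). It is above those of pcsk1 (0.699 CPM) and pcsk2 (0.857 CPM), whose absence therefore cannot be told from low counts. Summed over the marker lists, liver genes were at 2713 CPM in the enzyme-holding nuclei and 12817 CPM in the others, and intestine genes at 919 CPM and 945 CPM.

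By the share of their nuclear UMIs found in the enzyme-holding nuclei, which made up 1.91% of all nuclear UMIs, the 8 enzymes lay between 78.9% (cpb1) and 82.4% (ela2). Of 18680 genes with at least 100 UMIs, 47 had over 50% of their UMIs there. The 10 other genes with the largest share were 3 genes that the files all name CELA1 (1 of many) (84.8%, 81.8% and 81.5%), pglyrp6 (84.7%), amy2a (81.4%), si:dkey-14d8.7 (80.4%), si:dkey-14d8.6 (80.2%), cpa5 (80.2%), endou (79.9%) and zgc:92137 (79.8%). CELA1 is the symbol of an elastase, and pglyrp6 belongs to the peptidoglycan recognition proteins. The first CELA1 gene (165 UMIs, of which 140 in these nuclei) reached 100 UMIs only through them.

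In dissociated cells, the enzymes were nearly absent. Cells have no free RNA barcodes in these files, so the level in blood clusters (erythrocyte-, neutrophil- and macrophage-like) stood in for it. No cluster of cells was named for T and NK cells. The blood level was 4.82 CPM (3.34 to 6.73) in sample E and 4.28 CPM (2.34 to 7.18) in sample F. Of the 34 blood enzyme UMIs of E, 33 were in erythrocyte-like cells and 26 of these were ela2, while the neutrophil-like cells had 1 UMI (0.735 CPM) and the macrophage-like cells 0. The barcodes of sample E with under 200 genes had 0 enzyme UMIs of 124313 in all, with an exact upper limit of 29.7 CPM. No cell of sample E was enzyme-holding, with an exact upper limit of 0.207% of 1780 cells, and no cell of E had more than 3 enzyme UMIs. In sample F, 2 of 1002 cells met the rule, or 0.200% (0.0242 to 0.719%).

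The first of these cells of sample F had 6399 enzyme UMIs among 60384 UMIs and 7498 genes, a share of 10.6%. It held 1687 UMIs of prss59.1, 1267 of try, 1052 of ctrb1, 1036 of prss59.2, 523 of ela3l, 460 of ela2l, 208 of ela2 and 166 of cpb1. All 17 companions were present, with 1241 UMIs, among them zgc:112160 (225), zgc:92590 (219) and cel.2 (171), and none of the 6 acinar transcription factors. It had 0 UMIs of the BRAF transgene and 0 of EGFP, but 646 UMIs of hmgn2, 303 of h2afvb, 45 of top2a and 35 of mki67, genes of chromatin and of dividing cells. It also had 96 UMIs from 3 of 8 keratinocyte genes, 87 of them from epcam. It was 6th in genes and 17th in UMIs among the barcodes of its sample. It was not called a doublet (score 0.19). Doublets were simulated from cells of the same sample, where hardly any other cell held the enzymes. The call could therefore hardly have found a doublet of an enzyme-rich cell with another cell. The leading cell fell into an unnamed cluster, of which 64 cells were from sample F. The cluster's leading genes included germ line genes such as ddx4 and piwil1, and also si:ch211-240l19.8 and a gene named CELA1. In sample F, genes of these last names had 905 of 914 and 651 of 659 UMIs in the 2 enzyme-holding cells. The mean log2 ratio of the companions was 3.017 in this cluster and at most 1.124 in the other clusters of cells. A name for companions also needed a companion among the leading genes, a condition set after seeing the data, and none was there. In composition the cell was 7.84% away from the enzyme-holding nuclei, and prss59.1 took 26.4% of its enzyme UMIs.

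The second cell, with 11 enzyme UMIs among 6570 (0.167%), fell into the liver-like cluster of cells. It had 10 UMIs from 1 of 11 liver genes and 69 UMIs from 2 of 8 keratinocyte genes, 67 of them from icn. It held 1 UMI of a companion and met the rule only narrowly in UMIs. A further barcode of sample F had 410 enzyme UMIs among only 835 UMIs and 100 genes, and was not kept as a cell for lack of genes. Its share of 49.1% was near the highest share of any nucleus, and it held 118 UMIs of 12 companions, with ctrb1 at 111, try at 84 and prss59.1 at 81 UMIs. The other 65 barcodes of F under 200 genes had 0 enzyme UMIs among 53805.

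By the same measure of likeness, among 7619 genes with at least 100 UMIs in the cells of F, cel.2 (100%), zgc:92590 (99.1%), si:ch211-240l19.8 (99.0%), CELA1 (1 of many) (98.8%), zgc:112160 (98.3%), si:ch211-240l19.6 (96.6%), si:ch211-240l19.5 (89.2%), zgc:193726 (89.0%), amy2a (84.6%) and ifitm1 (19.9%) had the largest share of their UMIs in the 2 enzyme-holding cells, which held 0.469% of the UMIs of F. Each of these but ifitm1 reached 100 UMIs only through these cells, so its high share is set by that minimum, and the list is a description of what is nearly 1 cell. By identifier, amy2a was the 1 gene on this list and on that of the nuclei, since the CELA1 (1 of many) here (ENSDARG00000017314) is another gene than the 3 of that name there. The companion cpa5 was not confined to these cells, with 1722 UMIs in sample F, of which 164 were in the leading cell, and 860 UMIs in sample E, where no cell held the enzymes. It was among the 10 leading genes of a neutrophil-like cluster of cells. The companion pdia2 was also found elsewhere, with 181 UMIs in sample F, of which 3 were in the leading cell, and 533 in sample E.

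Outside these cells, 2 elastase genes each stood higher in a certain class of cells than in the rest, beside fewer UMIs of other enzymes. In sample E, 26 of the 29 ela2 UMIs of cells were in the 267 erythrocyte-like cells, at 5.64 CPM (3.68 to 8.26) against 0.105 CPM (0.0217 to 0.307) in the other 1513 cells. They lay in 25 cells with at most 2 UMIs each, beside 7 UMIs of the other enzymes. In sample F, 5 ela2 UMIs lay in 14 erythrocyte-like cells, at 15.1 CPM (4.91 to 35.3). The rest without the leading cell held more of them, 10 UMIs, but at 0.720 CPM (0.345 to 1.32). The direction was the same in both samples. In nuclei, ela2 made up 2.83% of the enzyme UMIs of the erythrocyte-like cluster and 2.57% in free RNA, where a difference as small as the ela2 level in cells could not have been seen.

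The other was ela2l, in a cluster of 23 cells led by tuba7l and sycp1, genes of microtubules and of meiosis. All 5 spermatid markers on the list had UMIs in it, at a summed level of 5406 CPM against 1.48 CPM in the other cells. In sample F, 26 ela2l UMIs lay in 11 of the 19 cells of this cluster, at 231 CPM (151 to 338), against 0.213 CPM (0.0439 to 0.621) in the rest without the leading cell. In sample E, 3 ela2l UMIs lay in 2 of its 4 cells, at 69.8 CPM (14.4 to 204). The rest of E also held 3, at 0.0906 CPM (0.0187 to 0.265). These cells also held 6 UMIs of other enzymes in F, 4 of ela2 and 2 of try, and 2 UMIs of ela2 in E, in the same 11 and 2 cells. At most 5 ela2l UMIs were found in 1 cell, so that these cells did not meet the rule for holding the enzymes. These ela2 and ela2l signals were chosen after their values were seen.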

How the data were processed

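For samples E and F and the pooled nuclei, the deposited values are the authors' raw UMI counts of each gene in each barcode, made with Cell Ranger (3.1.0 and 5.0.1 in the submitters' processing notes, 4 in the header of the nuclei file) and the build GRCz10. Cells were already filtered to called barcodes, while the nuclei file holds every barcode. The array positions of 3 tissue sections were not used here. Barcodes with under 200 genes or over 20% mitochondrial UMIs were left out, and nuclei needed at least 500 and under 1000000 UMIs. Clustering used Seurat 5.3.0 and sctransform 0.4.2 (3000 features less the enzyme genes, 15 principal components, resolution 0.8), and doublets were called by Scrublet in scanpy 1.11.5 at an expected rate of 0.06. Scrublet called 2 doublets in E and 5 in F, whose cells had been sorted to remove doublets per the study's methods. A cluster was named "-like" after the marker list whose log2 ratio to the median cluster was highest on average, provided the mean reached 1 and 3 or more markers, and 50% of the list, were raised 2 times. Its 10 leading genes also had to hold a marker of that list and no more of any other, a condition set after seeing the data. Hashtags were called above 2 times their median count. Levels are summed counts, with exact intervals from scipy 1.17.1. The rule for enzyme-holding nuclei was run on simulated nuclei planted clear of its threshold, which does not test nuclei near it. The simulated rule for raised genes was scaled by the median ratio, unlike the rule used here, so it does not test that rule.

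The genes and lists were chosen with earlier results of these data known. The genes named are the listed enzymes, the companions and acinar transcription factors (1 companion is counted in the list but its values are not reported here), the 10 other genes with the largest share of UMIs in enzyme-holding nuclei, up to 10 likewise in cells of F, and markers that bear on a result. Alternatives were other thresholds for free RNA, UMIs, fold, depth and mitochondrial share, called doublets left out, other clusterings, and each fish left out. Leaving out the oocyte-like or acinar-like clusters, free RNA of over 100 and under 200 UMIs, keeping barcodes under 200 genes, and totals without the enzymes were added after seeing the data. Sequences of the enzymes were not used here.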

Additional observations from a re-analysis of the deposited data

Results flagged for a closer look

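Among barcodes that the comparisons left out for having under 200 genes, those of sample F held 410 enzyme UMIs among 54640, a level of 7504 CPM (6795 to 8266), where those of sample E held 0 among 124313. All 410 came from the single barcode with 835 UMIs described above.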

How the results depend on the processing

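The number of enzyme-holding nuclei stayed within 1.5 times of 217 under other thresholds, at 148 with 20 times free RNA as the threshold and 322 with 5 times. Without the acinar-like cluster, 1 remained. Leaving out the nuclei of each fish in turn gave 168 to 180. The free RNA level of 11113 CPM was 11627 CPM in barcodes of 1 to 10 UMIs, 6217 CPM in 11 to 50, 7530 CPM in 51 to 100 and 7910 CPM in over 100 and under 200. The ratio of the other nuclei to free RNA, 0.153, was 0.146, 0.225, 0.197 and 0.189 with these levels, 0.121 and 0.201 with 5 and 20 times as the threshold, 0.154 and 0.150 with nuclei of at least 200 and 1000 UMIs, 0.153 without called doublets, 0.319 without the oocyte-like clusters and 0.112 without the acinar-like cluster, and 0.152 to 0.166 when leaving out each fish. It was below 1 in each, but the rule itself takes the nuclei of highest enzyme share out of the others. All nuclei together stood at 8701 CPM (8683 to 8719). This was below free RNA of 1 to 50 or 1 to 10 UMIs. It was above the level in the classes of 11 to 50, 51 to 100, and over 100 and under 200 UMIs. The share of nuclear enzyme UMIs in enzyme-holding nuclei (80.9%) and the level in the other nuclei (1695 CPM) were 84.9% and 1342 CPM with 5 times, 74.7% and 2233 CPM with 20 times, 80.7% and 1709 CPM with at least 200 UMIs, 81.3% and 1670 CPM with at least 1000, 81.04% and 1704 CPM without doublets, 84.3% and 1396 CPM with free RNA of 11 to 50 UMIs, 83.3% and 1486 CPM with 51 to 100, 83.1% and 1498 CPM with over 100 and under 200, 83.9% and 3546 CPM without oocyte-like clusters, 0.0878% and 1243 CPM without the acinar-like cluster, and 78.9% to 84.0% and 1687 to 1846 CPM when leaving out each fish. The settings that leave out clusters or use free RNA of over 100 UMIs were chosen after seeing the data. Enzyme-holding cells of F numbered 5 with at least 5 enzyme UMIs and 1 with at least 20. The leading cluster of nuclei held 87.5% of enzyme UMIs when clustered with the enzyme genes, in place of 86.1%. The distance between the mix in free RNA and in enzyme-holding nuclei was 1.68% in place of 2.20% as a mean over single nuclei. The difference between gates ran from -2.36 to -1.97 percentage points when leaving out each fish, kept its direction under the other hashtag rule (-1.83), where the gates' intervals overlapped in each fish, and was -3.78 for nuclei of the acinar-like cluster. No paired analysis was possible between the deposited samples because each kind of preparation is its own library with no shared replicate numbers in the labels, and the comparison of gates is itself paired by fish. Depth limits the reading of single enzymes in cells, where most values rest on under 30 UMIs.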
